A study of Saccharomyces cerevisiae with 36 samples.

Results

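Eisosomes are protein assemblies that line furrows of the yeast plasma membrane, and the data described here are the transcript levels of 10 genes that encode their core and membrane proteins. The genes were chosen by name, and each had a row among the 6172 genes of the deposited normalized counts and the 6403 genes of the deposited read counts. They are *PIL1* (YGR086C, chrVII:649598-650617), *LSP1* (YPL004C, chrXVI:550632-551657), *SUR7* (YML052W, chrXIII:170402-171310), *FMP45* (YDL222C, chrIV:60872-61801), *PUN1* (YLR414C, chrXII:953353-954144), *NCE102* (YPR149W, chrXVI:829918-830439), *FHN1* (YGR131W, chrVII:754726-755250), *SEG1* (YMR086W, chrXIII:439208-442090), *SEG2* (YKL105C, chrXI:239185-242583) and *EIS1* (YMR031C, chrXIII:332212-334743), with coding positions in the R64 build. All 10 passed the filter on low counts, as did 5867 genes in all. None of the 10 overlaps another annotated gene, and each has 1 coding exon.

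RNA-seq was carried out on total RNA of *Saccharomyces cerevisiae* BY4741, a haploid laboratory strain, grown exponentially in rich medium (YPD). Cells lacking *MIP6*, which encodes an RNA-binding protein (*mip6Δ*), were compared with cells that carry it (WT). Memory cells received a first heat shock of 20 min and 60 min of recovery before the final heat shock, whereas no-memory cells received the final one alone. Heat was applied by adding medium at 51°C, and the mixed culture in which the cells were held was cooler than this medium. The 36 libraries fall into 12 groups of 3 biological replicates, namely *mip6Δ* memory, *mip6Δ* no-memory, WT memory and WT no-memory cells at 0, 15 and 20 min of the final heat shock. The authors describe a culture split into memory and no-memory flasks, with samples taken from both over the final heat shock. Libraries of one replicate number at 0, 15 and 20 min may thus come from the same flask. The main tests did not pair them, and a replicate block is used as an alternative. The number of *mip6Δ* clones is not given in the sources used here.

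Pil1 and Lsp1 are related BAR-domain proteins that assemble under the membrane and bend it into a furrow, and eisosomes collapse without Pil1. Sur7, Fmp45 and Pun1 are tetraspan proteins of these furrows, a compartment that also holds nutrient transporters. Nce102 is a tetraspan protein linked to sphingolipid signalling through the Pkh kinases, Fhn1 is its paralog, and Seg1, Seg2 and Eis1 are further eisosome components. Of the factors known to act on yeast genes in heat shock, Msn2/4 bind the stress response element and Hsf1 binds the heat shock element.

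The upstream sequences of 4 genes are shown because they hold every match to these elements found among the 9 genes scanned, and because they include the gene with the largest heat response (*FMP45*). Each run gives bases 300 to 151 upstream of the start codon, read 5′ to 3′ on the strand of the gene, from RefSeq (R64 build). Capitals mark the core AGGGG of the stress response element, which reads CCCCT on the other strand, or the heat shock element pair TTCNNGAA. The runs lie at chrVII:650768-650917 (*PIL1*, minus strand), chrXVI:551808-551957 (*LSP1*, minus strand), chrIV:61952-62101 (*FMP45*, minus strand) and chrXIII:334894-335043 (*EIS1*, minus strand).
PIL1: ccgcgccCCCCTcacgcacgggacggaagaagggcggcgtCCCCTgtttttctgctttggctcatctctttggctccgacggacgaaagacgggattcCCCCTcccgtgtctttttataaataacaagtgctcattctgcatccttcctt
LSP1: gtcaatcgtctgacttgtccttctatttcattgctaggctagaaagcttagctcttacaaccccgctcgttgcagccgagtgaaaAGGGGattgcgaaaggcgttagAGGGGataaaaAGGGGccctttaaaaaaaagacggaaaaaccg
FMP45: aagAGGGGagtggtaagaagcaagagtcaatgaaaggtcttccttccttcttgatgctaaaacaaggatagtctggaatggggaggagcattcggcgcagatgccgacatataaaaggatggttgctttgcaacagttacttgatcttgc
EIS1: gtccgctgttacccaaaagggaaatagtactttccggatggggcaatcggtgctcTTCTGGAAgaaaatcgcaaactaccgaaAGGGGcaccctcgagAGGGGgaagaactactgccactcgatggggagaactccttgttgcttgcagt

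*PIL1* and *LSP1* each had 3 matches to AGGGG on either strand, *EIS1* had 2 and *FMP45* had 1. Among the 300-base upstream windows of 6000 genes, 22.2% had at least 1 such match, 3.5% at least 2 and 0.55% at least 3. The matches of *LSP1*, *EIS1* and *FMP45* read AGGGG on the strand of the gene, and those of *PIL1* read CCCCT. There was 1 TTCNNGAA upstream of *EIS1* (13.1% of all windows hold at least 1), and GAANNTTC, the other pair of the heat shock element (11.5% of all windows), was found in none of the 9. The windows of *PUN1*, *NCE102*, *FHN1*, *SEG1* and *SEG2* had no match to these 3 patterns. A match is a description of the letters, and binding was not measured.

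**Figure D1:**
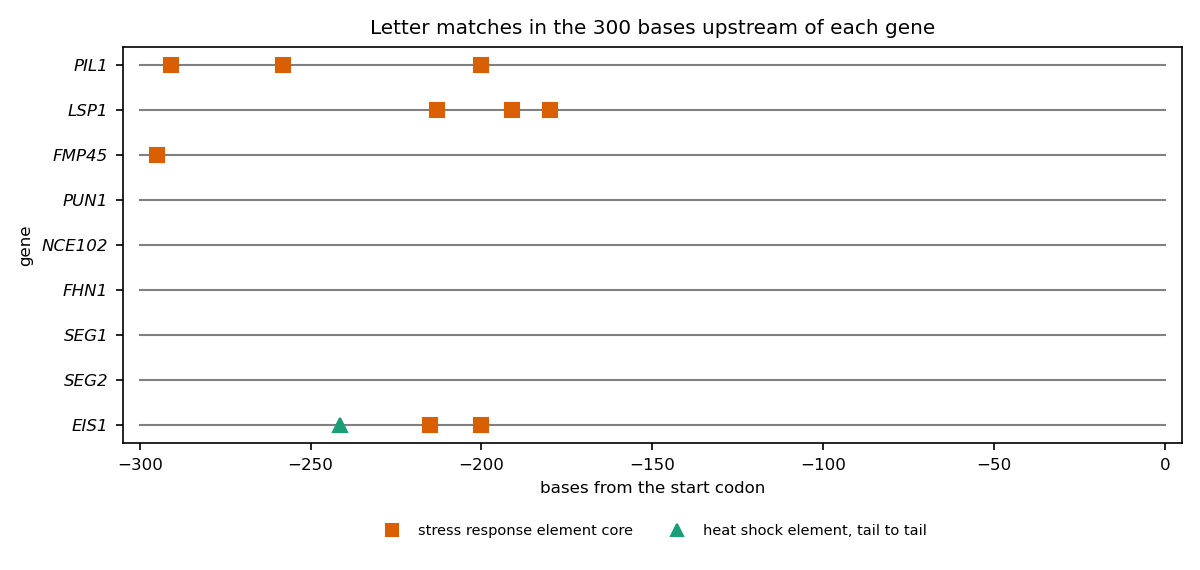
Letter matches in the 300 bases upstream of the start codon of the 9 genes scanned, with bases upstream of the start codon on the x axis and 1 line per gene. Markers show the stress response element core and the heat shock element pair TTCNNGAA. *PIL1* and *LSP1* carry 3 matches each, and all matches lie between 178 and 297 bases upstream.

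The libraries held 28270651 to 42233578 counted reads each. *MIP6* had no read in the 18 *mip6Δ* libraries and 134 to 626 reads in each of the 18 WT libraries. For replicate 2 of *mip6Δ* memory cells at 0 min, the title and another label give different times (0 and 20 min), and the title was followed. Calls that rest on this library, called the library of doubtful time for its labels, are named below. Its levels in CPM, a scale defined below, followed the title. It had 9.9 CPM of *FMP45*, 299.6 of *SUR7* and 351.0 of *LSP1*. The 20-min libraries of *mip6Δ* memory cells had 245.9 to 358.4, 94.3 to 119.6 and 663.2 to 834.5 CPM. Its levels of *FHN1* and *EIS1* lay within the 20-min range, which overlapped that at 0 min. A call lost without it thus shows dependence on 1 library. The closest coding sequences were *PIL1* and *LSP1* (72.2% identity over 875 aligned bases), *NCE102* and *FHN1* (66.6% over 344 bases), and *FMP45* and its relative YNL194C (67.7% over 325 bases).

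Levels are given as CPM, read counts scaled to a common library size with TMM factors, a relative scale, since no absolute amount of RNA was measured. In bulk RNA, fewer cells that express a gene and less of its RNA per cell cannot be told apart. Levels of different genes are compared as CPM per kb of coding length. On that scale, WT no-memory cells at 0 min had 1777.5 ± 73.4 CPM per kb of *NCE102* (SD, n = 3), 719.8 ± 67.9 of *PIL1*, 677.3 ± 74.8 of *LSP1*, 310.8 ± 43.6 of *SUR7*, 123.4 ± 8.85 of *PUN1*, 96.2 ± 25.5 of *EIS1*, 38.2 ± 0.375 of *SEG1*, 19 ± 0.362 of *SEG2*, 11.4 ± 1.17 of *FHN1* and 9.71 ± 2.09 of *FMP45*. The replicates of *PIL1* and *LSP1*, of *PUN1* and *EIS1*, and of *FHN1* and *FMP45* overlapped, and no other neighbours in this order did. The upper 8 genes had the same order in all 4 groups at 0 min, and the last pair changed places in memory cells.

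In all 8 heat-shocked groups the order was *NCE102*, *LSP1*, *PIL1*, *FMP45*, *PUN1*, *SUR7*, *EIS1*, *SEG1*, *SEG2* and *FHN1*. By group means *LSP1* thus stood above *PIL1*, *PUN1* above *SUR7*, and *FMP45* above both. The replicates of *LSP1* and *PIL1* overlapped at 20 min in *mip6Δ* memory, WT memory and WT no-memory cells, and those of *FMP45* and *PUN1* in WT memory cells at 20 min. In WT no-memory cells at 15 min, *NCE102* had 3139.4 ± 65.4 CPM per kb (SD, n = 3), *LSP1* 1671.1 ± 155.6, *PIL1* 1172.2 ± 74.2, *FMP45* 1138.8 ± 166.8, *PUN1* 194.9 ± 14 and *SUR7* 185.4 ± 6.2 CPM per kb. Replicates of *PIL1* and *FMP45* overlapped there and in no-memory cells of *mip6Δ* at both times and of WT at 20 min, and those of *PUN1* and *SUR7* overlapped there, in *mip6Δ* no-memory cells at 15 min, where *SUR7* and *EIS1* also overlapped, and in WT memory cells at 20 min.

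**Figure D2:**
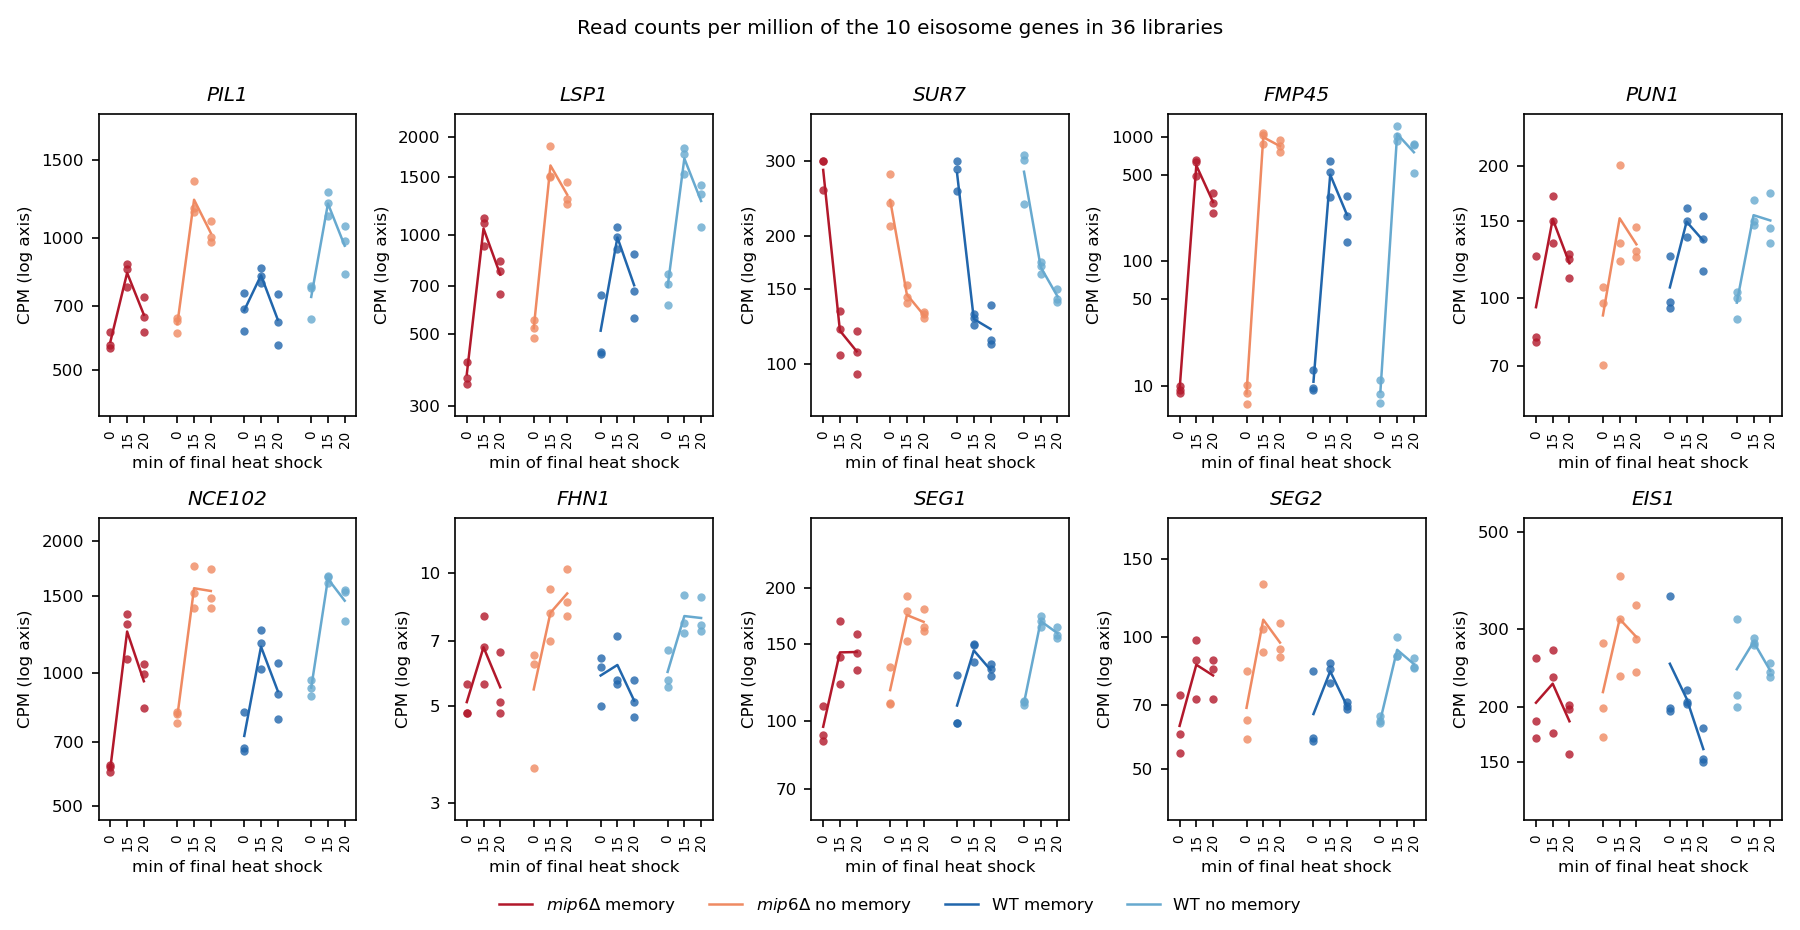
CPM of the 10 genes in each of the 36 libraries (y, log axes) by min of the final heat shock (x), for the 4 combinations of strain and condition. Points are libraries and lines join the means of 3 replicates. *FMP45* lies between 7.2 and 13.5 CPM in all 12 libraries at 0 min and between 142.8 and 1228.6 CPM in all 24 heat-shocked libraries, whereas *SUR7* is lower in every heat-shocked library than in any library at 0 min.

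*FMP45*, whose protein belongs to the Sur7 family and is needed for normal sporulation, had the largest heat response of the 10 genes. *mip6Δ* memory cells had 8.8, 9.9 and 9.2 CPM of *FMP45* at 0 min, 629.3, 655.8 and 489.9 CPM at 15 min, and 297.8, 358.4 and 245.9 CPM at 20 min. *mip6Δ* no-memory cells had 7.2, 8.8 and 10.1 CPM at 0 min, 1043.8, 878.9 and 1071.3 CPM at 15 min, and 943.4, 753.3 and 840.7 CPM at 20 min. All *mip6Δ* memory libraries were below all *mip6Δ* no-memory libraries at 15 and at 20 min, and the groups overlapped at 0 min. WT memory cells had 13.5, 9.3 and 9.7 CPM at 0 min, 327.1, 640.2 and 527.8 CPM at 15 min, and 142.8, 337.6 and 232.0 CPM at 20 min. WT no-memory cells had 8.6, 7.3 and 11.1 CPM at 0 min, 924.3, 1024.4 and 1228.6 CPM at 15 min, and 514.0, 884.5 and 867.6 CPM at 20 min. WT memory and no-memory libraries were likewise separate at 15 and 20 min only, and replicate 1 was the lowest heat-shocked replicate at both times in both conditions. At 15 min *FMP45* rose 63.4-fold in *mip6Δ* memory cells (log2 fold change 5.99 ± 0.31, SE), 114.6-fold in *mip6Δ* no-memory cells (6.84 ± 0.323), 46.0-fold in WT memory cells (5.52 ± 0.303) and 117.4-fold in WT no-memory cells (6.88 ± 0.323). The largest adjusted p of these tests (edgeR) was 1.68e-14. At 20 min it stood 32.2-fold, 97.1-fold, 21.9-fold and 83.7-fold above 0 min in the same order of groups.

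*SUR7*, for which the family is named, fell in every group. *mip6Δ* memory cells had 300.1, 299.6 and 256.2 CPM of *SUR7* at 0 min, 132.9, 120.7 and 105.0 CPM at 15 min, and 119.6, 106.7 and 94.3 CPM at 20 min. *mip6Δ* no-memory cells had 210.2, 278.4 and 239.0 CPM at 0 min, 153.3, 138.7 and 143.8 CPM at 15 min, and 132.1, 128.0 and 130.5 CPM at 20 min. Heat-shocked *mip6Δ* libraries lay below all those at 0 min, with replicate 1 of the no-memory cells low at 0 min. WT memory cells had 287.5, 254.4 and 298.8 CPM at 0 min, 131.0, 128.0 and 123.0 CPM at 15 min, and 137.4, 111.0 and 113.5 CPM at 20 min. WT no-memory cells had 301.5, 237.0 and 309.1 CPM at 0 min, 173.6, 169.6 and 162.5 CPM at 15 min, and 142.0, 139.6 and 150.1 CPM at 20 min. Heat-shocked libraries of WT were also below all those at 0 min. The log2 fold change at 15 min was -1.25 ± 0.11 (SE) in *mip6Δ* memory cells, -0.74 ± 0.109 in *mip6Δ* no-memory cells, -1.14 ± 0.11 in WT memory cells and -0.75 ± 0.109 in WT no-memory cells, with a largest adjusted p of 6.94e-07. At 20 min it was -1.42, -0.90, -1.22 and -0.97 in the same order of groups.

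*PUN1*, named as a plasma membrane protein upregulated in nitrogen stress, rose by less than *FMP45*. *mip6Δ* memory cells averaged 95.4 ± 25.6 CPM at 0 min, 151.1 ± 19 CPM at 15 min, and 120.0 ± 7.88 CPM at 20 min (SD, n = 3). *mip6Δ* no-memory cells averaged 91.4 ± 18.4, 151.8 ± 42.7 and 132.5 ± 11.1 CPM, WT memory cells 105.8 ± 16.2, 149.1 ± 11 and 135.0 ± 18.9 CPM, and WT no-memory cells 97.7 ± 7.01, 154.3 ± 11 and 150.1 ± 20.7 CPM. At 15 min *PUN1* rose in all 4 groups, by 0.50 to 0.73 on the log2 scale. At 20 min it passed in the no-memory groups, with log2 fold changes of 0.54 in *mip6Δ* and 0.62 in WT, and stood at 0.33 (adjusted p = 0.0937) in *mip6Δ* memory cells and 0.35 (adjusted p = 0.0824) in WT memory cells. These last values passed with the replicate number as a block (adjusted p = 0.00208 in *mip6Δ* and 0.00248 in WT), with limma on the normalized counts (0.000301 and 0.000484), with library totals (0.00645 and 0.0166) and without replicate 3 (0.00159 and 0.0175). Without replicate 2, *PUN1* did not pass at 15 min in memory cells of *mip6Δ* (adjusted p = 0.0817) or WT (0.185), nor at 20 min in *mip6Δ* no-memory cells without replicate 1 (0.0523) or 2 (0.0604).

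Of the summed reads per coding length of these 3 genes at 0 min, *FMP45* made up 2.26% ± 0.131 in *mip6Δ* memory cells, 2.39% ± 0.247 in *mip6Δ* no-memory cells, 2.58% ± 0.577 in WT memory cells and 2.17% ± 0.27 in WT no-memory cells (SD, n = 3). *SUR7* led with 70.7% ± 6.92, 68.2% ± 3.25, 68.0% ± 2.02 and 69.8% ± 3.55 in the same order. At 15 min the share of *FMP45* was 66.1% ± 4.11, 75.3% ± 2.1, 60.9% ± 7.71 and 74.8% ± 2.45. Of these 3 genes the leading transcript was thus *SUR7* before and *FMP45* after heat shock in every group. The shares leave out YNL194C, the relative of *FMP45*. At 15 min YNL194C had 109.1 CPM per kb in *mip6Δ* memory cells, 224.1 in *mip6Δ* no-memory cells, 79.2 in WT memory cells and 215.9 in WT no-memory cells. In the no-memory groups this was above *SUR7* (159.8 in *mip6Δ* and 185.4 in WT). At 20 min *FMP45* held 54.3% ± 4.24, 74.4% ± 2.29, 44.4% ± 10.6 and 69.3% ± 5.63. Within libraries, the per-length ratio of *FMP45* to *SUR7*, which is free of library scaling, lay between 0.028 and 0.0458 at 0 min, 2.44 and 7.39 at 15 min, and 1.02 and 6.98 at 20 min. Each of the 8 comparisons of heat-shocked with 0-min ratios had no overlap and an exact two-sided permutation p of 0.1, the smallest that 3 against 3 libraries allow.

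**Figure D3:**
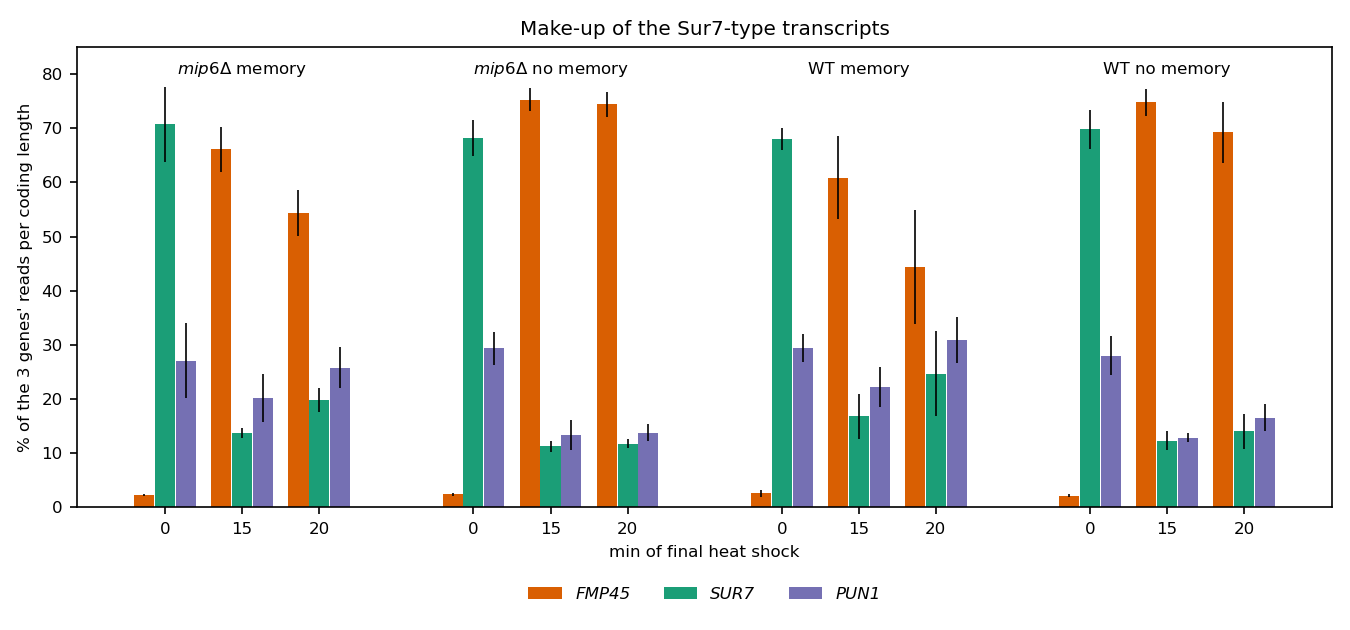
Share of *FMP45*, *SUR7* and *PUN1* in their summed reads per coding length (y, percent) by min of the final heat shock (x), for the 4 combinations of strain and condition. Error bars are SD of 3 replicates. *SUR7* holds 68.0% to 70.7% at 0 min, and *FMP45* holds the largest share in all 8 heat-shocked groups.

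Both BAR-domain genes rose at 15 min in all 4 groups. *mip6Δ* memory cells had 409.9, 351.0 and 366.3 CPM of *LSP1* at 0 min, 1125.4, 1090.8 and 926.7 CPM at 15 min, and 775.5, 834.5 and 663.2 CPM at 20 min. *mip6Δ* no-memory cells had 552.3, 486.2 and 519.4 CPM at 0 min, 1877.1, 1507.2 and 1513.3 CPM at 15 min, and 1456.6, 1285.3 and 1246.4 CPM at 20 min. At each time all *mip6Δ* memory libraries were below all *mip6Δ* no-memory libraries. WT memory cells had 658.0, 440.0 and 433.7 CPM at 0 min, 906.0, 1060.0 and 984.9 CPM at 15 min, and 558.3, 874.7 and 675.8 CPM at 20 min. WT no-memory cells had 710.2, 611.8 and 762.9 CPM at 0 min, 1535.8, 1842.8 and 1765.1 CPM at 15 min, and 1056.1, 1425.9 and 1331.2 CPM at 20 min. The WT groups overlapped at 0 min, where replicate 1 of the memory cells was high, and were separate at 15 and 20 min. *LSP1* rose 2.79-fold at 15 min in *mip6Δ* memory cells (log2 fold change 1.48 ± 0.161, SE), 3.14-fold in *mip6Δ* no-memory cells (1.65 ± 0.162), 1.93-fold in WT memory cells (0.95 ± 0.159) and 2.47-fold in WT no-memory cells (1.30 ± 0.16). At 20 min it stood 2.02-fold, 2.56-fold, 1.38-fold and 1.83-fold above 0 min in the same order, each past the threshold. The call in WT memory cells (adjusted p = 0.0134) was lost without replicate 2 (0.495) or 3 (0.142).

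For *PIL1*, *mip6Δ* memory cells had 561.0, 571.9 and 610.3 CPM at 0 min, 850.2, 872.3 and 775.1 CPM at 15 min, and 660.3, 734.0 and 612.8 CPM at 20 min. *mip6Δ* no-memory cells had 607.7, 646.8 and 656.6 CPM at 0 min, 1344.6, 1170.3 and 1145.6 CPM at 15 min, and 1092.4, 1005.0 and 979.4 CPM at 20 min. These *mip6Δ* groups overlapped at 0 min and were separate during heat shock. WT memory cells had 750.0, 615.9 and 687.8 CPM at 0 min, 790.9, 854.0 and 821.2 CPM at 15 min, and 569.9, 744.5 and 642.6 CPM at 20 min. WT no-memory cells had 771.1, 654.3 and 777.3 CPM at 0 min, 1119.2, 1270.6 and 1197.1 CPM at 15 min, and 829.0, 1064.5 and 984.5 CPM at 20 min. In WT memory cells the libraries at 20 min overlapped those at 0 min, which in WT no-memory cells they did not. The log2 fold change of *PIL1* at 15 min was 0.52 ± 0.107 (SE) in *mip6Δ* memory cells, 0.94 ± 0.107 in *mip6Δ* no-memory cells, 0.26 ± 0.106 in WT memory cells and 0.70 ± 0.107 in WT no-memory cells. All 4 passed, that in WT memory cells (adjusted p = 0.0311) not without replicate 2 (0.283) or 3 (0.122). At 20 min *PIL1* was higher in no-memory cells of *mip6Δ* (0.69) and WT (0.39, adjusted p = 0.125 without replicate 2), and stood at 0.20 (adjusted p = 0.0938) in memory cells of *mip6Δ* and -0.07 (0.588) in those of WT. In *mip6Δ* memory cells it passed with library totals (0.40, adjusted p = 0.000896) and with limma on the normalized counts (0.24, 0.0286).

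The per-length ratio of *LSP1* to *PIL1* within a library of *mip6Δ* memory cells was 0.644 ± 0.0713, 1.25 ± 0.0639 and 1.12 ± 0.0462 (SD, n = 3) at the 3 times, low to high. It was 0.812 ± 0.0812, 1.33 ± 0.0551 and 1.29 ± 0.0333 in *mip6Δ* no-memory cells, 0.736 ± 0.125, 1.19 ± 0.0476 and 1.06 ± 0.0982 in WT memory cells, and 0.94 ± 0.0315, 1.42 ± 0.0531 and 1.31 ± 0.0417 in WT no-memory cells. Over all groups the ratio was 0.597 to 0.976 at 0 min, 1.14 to 1.47 at 15 min and 0.974 to 1.34 at 20 min. Replicate 1 of WT memory cells was the lowest library at 20 min and the one heat-shocked library under 1. Within each group the heat-shocked ratios did not overlap those at 0 min. The 8 exact two-sided permutation tests of heat-shocked against 0-min ratios each gave p = 0.1, the smallest possible with 3 against 3 libraries.

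*NCE102* was the most abundant of the 10 transcripts per length and rose in all groups. *mip6Δ* memory cells had 613.5, 618.4 and 598.0 CPM of *NCE102* at 0 min, 1360.4, 1295.4 and 1076.5 CPM at 15 min, and 998.2, 1048.1 and 832.6 CPM at 20 min. *mip6Δ* no-memory cells had 772.0, 817.3 and 808.8 CPM at 0 min, 1754.4, 1406.8 and 1518.5 CPM at 15 min, and 1725.6, 1404.5 and 1483.0 CPM at 20 min. The *mip6Δ* memory libraries were below the *mip6Δ* no-memory libraries at each time. WT memory cells had 818.9, 668.1 and 676.1 CPM at 0 min, 1022.6, 1253.3 and 1171.9 CPM at 15 min, and 786.9, 1052.9 and 896.8 CPM at 20 min. WT no-memory cells had 966.2, 889.6 and 927.6 CPM at 0 min, 1599.8, 1652.8 and 1663.7 CPM at 15 min, and 1313.0, 1528.0 and 1543.7 CPM at 20 min. The same separation by condition held in WT at all 3 times, on the TMM scale. For this and the other members, how many of all genes were separate by condition was not counted. At 15 min *NCE102* rose 2.04-fold in *mip6Δ* memory cells (log2 fold change 1.03 ± 0.12, SE), 1.95-fold in *mip6Δ* no-memory cells (0.96 ± 0.12), 1.59-fold in WT memory cells (0.67 ± 0.12) and 1.77-fold in WT no-memory cells (0.82 ± 0.12). At 20 min it stood 1.57-fold, 1.92-fold, 1.27-fold and 1.58-fold above 0 min in the same order. The call in WT memory cells at 20 min (adjusted p = 0.0157) was lost without replicate 2 (0.398) or 3 (0.118).

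*FHN1*, the paralog of *NCE102*, was read at 3.6 to 10.2 CPM in all 36 libraries (102 to 363 reads). *mip6Δ* memory cells averaged 5.09 ± 0.467 CPM at 0 min, 6.78 ± 1.22 CPM at 15 min, and 5.5 ± 0.947 CPM at 20 min (SD, n = 3). *mip6Δ* no-memory cells averaged 5.44 ± 1.62, 8.12 ± 1.08 and 8.98 ± 1.14 CPM, WT memory cells 5.85 ± 0.711, 6.18 ± 0.883 and 5.13 ± 0.523 CPM, and WT no-memory cells 5.96 ± 0.612, 7.98 ± 0.804 and 7.9 ± 0.751 CPM. It rose at both times in no-memory cells, by 0.58 and 0.73 on the log2 scale in *mip6Δ* and by 0.42 and 0.41 in WT, and in *mip6Δ* memory cells at 15 min (0.41). The calls in WT (adjusted p = 0.0369 and 0.0438, 15 min first) and in *mip6Δ* memory cells (0.0419 at 15 min) were each lost without replicate 1, 2 or 3, that in WT at 20 min also with DESeq2 (0.0515) or without the filter (0.0548), and that of *mip6Δ* no-memory cells at 15 min without replicate 1 (0.0584). The per-length ratio of *FHN1* to *NCE102* within a library was 0.00461 to 0.00905 at 0 min, 0.00399 to 0.0065 at 15 min and 0.00463 to 0.00725 at 20 min, so *FHN1* stayed at under 1% of its paralog.

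*SEG1*, whose protein acts ahead of Pil1 in eisosome assembly, rose in all 8 heat comparisons, as only *LSP1*, *FMP45* and *NCE102* did besides. *mip6Δ* memory cells averaged 97.1 ± 9.95 CPM at 0 min, 143.2 ± 24.1 CPM at 15 min, and 143.5 ± 13.7 CPM at 20 min (SD, n = 3). *mip6Δ* no-memory cells averaged 117.6 ± 13.3, 174.1 ± 20.4 and 168.0 ± 10.6 CPM, WT memory cells 108.5 ± 16.2, 144.7 ± 7.56 and 130.7 ± 4.1 CPM, and WT no-memory cells 110.0 ± 1.08, 168.6 ± 4.85 and 158.3 ± 4.94 CPM. Fold changes of *SEG1* lay between 1.2 (WT memory, 20 min) and 1.53 (WT no-memory, 15 min). In WT memory cells its call was lost without replicate 2 at 15 min (adjusted p = 0.0584) and without replicate 2 or 3 at 20 min (0.343 and 0.111). Its paralog *SEG2* rose in 7 of the 8 comparisons, with fold changes between 1.25 and 1.58, and stood at 1.04 in WT memory cells at 20 min (adjusted p = 0.728, and 0.0346 without replicate 1). Without the library of doubtful time, *SEG2* did not pass in *mip6Δ* memory cells at 20 min (0.0648) or in WT memory cells at 15 min (0.053, and 0.112 without replicate 3). The WT comparison does not hold this library, but all groups share an estimate of the spread. Without replicate 2 *SEG2* passed only in no-memory cells at 15 min.

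*EIS1*, needed for normal eisosome assembly, had no direction common to the groups. *mip6Δ* memory cells averaged 204.6 ± 47.2 CPM at 0 min, 226.0 ± 47.7 CPM at 15 min, and 185.7 ± 25.5 CPM at 20 min (SD, n = 3). *mip6Δ* no-memory cells averaged 216.3 ± 56.5, 316.8 ± 80.9 and 288.4 ± 50.6 CPM, WT memory cells 250.8 ± 92.7, 209.0 ± 8.49 and 160.6 ± 16.2 CPM, and WT no-memory cells 243.7 ± 64.5, 281.2 ± 5.34 and 241.8 ± 9.05 CPM. At 0 min replicate 1 was the highest library of *EIS1* in each group, with 258.3, 279.4, 357.8 and 317.7 CPM in the same order, and the other libraries lay between 169.8 and 213.5 CPM. It rose in *mip6Δ* no-memory cells at 15 min (1.46-fold, adjusted p = 0.0283, and 0.216 without replicate 2). It was lower in WT memory cells at 20 min (log2 fold change -0.64 ± 0.224, adjusted p = 0.0151), and this call was lost without replicate 1 (0.161) or 2 (0.052) and with library totals (0.0503). Without replicate 1 a rise in WT no-memory cells at 15 min passed (0.0178), as did one in *mip6Δ* no-memory cells at 20 min (0.00859).

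**Figure D4:**
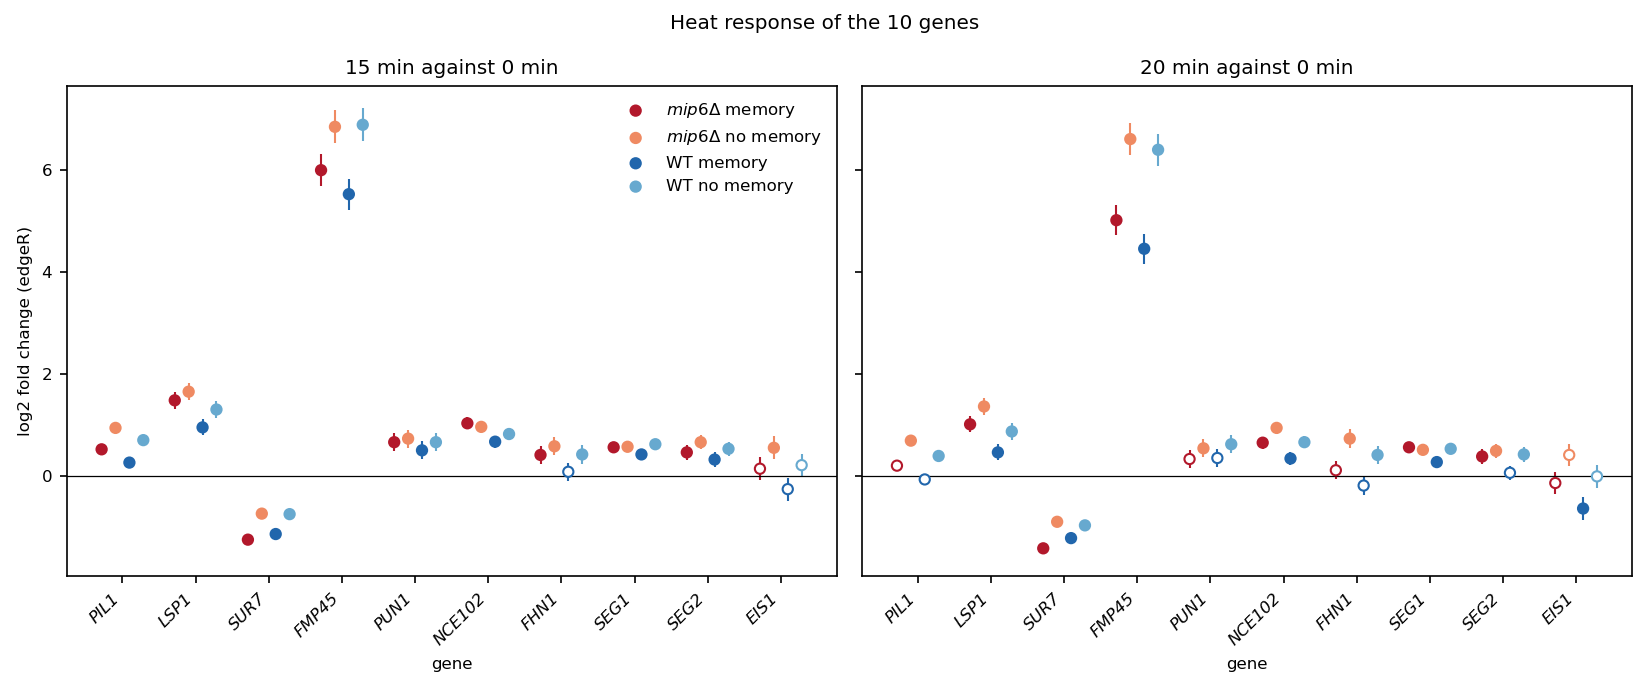
Log2 fold change of the 10 genes at 15 and 20 min over 0 min within each strain and condition, from edgeR. Bars are SE, filled points have an adjusted p under 0.05 and open points do not. *FMP45* lies at 4.45 or above in all 8 comparisons and *SUR7* at -0.74 or below.

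Over the 10 genes, 8 rose and 1 fell at 15 min in *mip6Δ* memory cells, against 34.3% and 35.6% of all tested genes. In *mip6Δ* no-memory cells 9 rose and 1 fell (37.6% and 38.0% of all genes), in WT memory cells 7 and 1 (32.5% and 33.3%), and in WT no-memory cells 8 and 1 (36.6% and 36.6%). Without replicate 2 of every group, 4 members were called in WT memory cells. The share of all genes is not given here for this or the other fits with libraries left out. The gene that fell was *SUR7* each time. The median log2 fold change of the members was 0.54, 0.70, 0.37 and 0.64 in the same order of groups, and that of all genes lay between -0.01 and 0.01. In *mip6Δ* memory cells 4 members changed over 2-fold, namely *FMP45*, *LSP1*, *SUR7* and *NCE102* (24.4% of all genes). In the other groups 2 did, *FMP45* and *LSP1* in no-memory cells of *mip6Δ* (30.1%) and WT (27.2%), and *FMP45* and *SUR7* in WT memory cells (19.6%).

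At 20 min 5 members were higher and 1 was lower than at 0 min in *mip6Δ* memory cells (32.9% and 33.1% of all genes). The counts were 8 and 1 in *mip6Δ* no-memory cells (37.2% and 37.0%), 4 and 2 in WT memory cells (29.8% and 30.4%), and 8 and 1 in WT no-memory cells (35.4% and 34.7%). Without replicate 2, 2 members were called in WT memory cells (share of all genes not given here). The 20-min samples were also set against those of 15 min over all 4 groups. None of the members was higher at 20 min (14.6% of all genes), 5 were lower (9.46% of all genes), and all 10 had values below 0. The log2 difference was -0.69 ± 0.124 (SE) for *FMP45*, -0.42 ± 0.0789 for *LSP1*, -0.30 ± 0.0532 for *PIL1*, -0.22 ± 0.0595 for *NCE102* and -0.16 ± 0.0544 for *SUR7*. By this average over groups *SUR7* was thus still lower at 20 min, and the other 4, which had risen by 15 min, stood below that level. The groups were not alike, and the change was not tested within single groups. *NCE102* averaged 1559.9 CPM at 15 min and 1537.7 CPM at 20 min in *mip6Δ* no-memory cells. In *mip6Δ* memory cells it averaged 1244.1 and 959.6 CPM. The call of *SUR7* (adjusted p = 0.0369) was lost without replicate 1, 2 or 3 (0.0754, 0.217 and 0.0951) and with library totals (0.178), and that of *NCE102* without replicate 2 (0.0546) or 3 (0.0719), so that 3 members were called without either.

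A further 19 genes known for eisosomes or the furrow compartment were followed beside the 10, namely YNL194C, *LPX2* (YKL050C), the kinase genes *PKH1*, *PKH2*, *PKH3*, *YPK1* and *YPK2*, the adaptor genes *SLM1* and *SLM2*, *MDG1*, *PST2*, *RFS1*, *YCP4*, *MSC3* and *XRN1*, and the transporter genes *CAN1*, *FUR4*, *TAT2* and *MUP1*. At 15 min in WT no-memory cells 12 of them rose and 4 fell (36.6% of all genes in each direction), with a median log2 fold change of 0.47, and 6 of the 19 changed over 2-fold (27.2% of all genes). The 6 were YNL194C (5.37 ± 0.525, SE), the flavodoxin-like genes *RFS1* (1.71 ± 0.111) and *PST2* (1.27 ± 0.106), the kinase gene *YPK2* (1.11 ± 0.203), the uracil permease gene *FUR4* (-2.05 ± 0.226) and the methionine permease gene *MUP1* (-1.49 ± 0.222). YNL194C, the relative of *FMP45*, had 60.4 to 125.6 CPM at 15 min in *mip6Δ* memory cells, 160.4 to 284.0 CPM in *mip6Δ* no-memory cells, 48.8 to 94.3 CPM in WT memory cells and 191.9 to 199.2 CPM in WT no-memory cells. All of these exceeded the 12 libraries at 0 min, of which replicate 1 of WT memory (11.3 CPM) and of WT no-memory cells (7.8 CPM) were the highest.

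The comparison of memory with no-memory cells asks whether an earlier heat shock changed the levels of these transcripts. At 0 min, after the recovery, the log2 difference of *FMP45* was 0.10 ± 0.266 (SE) in *mip6Δ* and 0.26 ± 0.266 in WT, neither past the threshold, and its libraries overlapped. None of the members was higher with memory (5.54% of all genes in *mip6Δ* and 5.68% in WT), and 2 were lower in *mip6Δ* (10.3% of all genes) and 1 in WT (10.3%). *NCE102* differed by -0.39 ± 0.119 in *mip6Δ* and -0.36 ± 0.119 in WT, and *LSP1* by -0.47 ± 0.158 in *mip6Δ*. *LSP1* in WT stood at -0.44 ± 0.158 (adjusted p = 0.0537, and 0.0357 with the replicate block), and *SEG1* in *mip6Δ* at -0.28 ± 0.109 (0.0831, and 0.00859 with the block). The calls at 0 min depended on the scaling and on single replicates. Scaling by library totals moved the median of all genes by 0.16 to 0.26 on the log2 scale in the memory comparisons (0.04 to 0.20 in the heat comparisons), and then *NCE102* in *mip6Δ* (adjusted p = 0.123) and WT (0.232) and *LSP1* in *mip6Δ* (0.133) did not pass. On that scale *SUR7* in *mip6Δ* was called higher with memory (0.40, adjusted p = 0.0116), against 0.23 (0.146) with TMM. Without the library of doubtful time, *LSP1* (0.127) and *NCE102* (0.0531) in *mip6Δ* did not pass, nor did the 3 calls made with TMM without replicate 2 or 3 (adjusted p between 0.211 and 0.355).

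During the final heat shock all 10 members had log2 values below 0 for memory over no memory, at both times and in both strains. At 15 min 6 were lower by the test in *mip6Δ* (18.2% of all genes) and 5 in WT (20.3%). With the replicate block 8 were lower in *mip6Δ* and 8 in WT, and the share of all genes with the block is not given here. In *mip6Δ* at 15 min the replicate 2 libraries of the 2 conditions did not deviate from their group means together (r = -0.06). At 20 min 7 were lower in *mip6Δ* (23.0%) and 7 in WT (23.0%). None was higher, against 22.0% of all genes in *mip6Δ* and 22.1% in WT at 15 min, and 23.5% in *mip6Δ* and 22.4% in WT at 20 min. The median of the members was -0.33 in *mip6Δ* and -0.42 in WT at 15 min, and -0.63 in *mip6Δ* and -0.57 in WT at 20 min, and that of all genes lay between -0.01 and 0.01. Relative to library totals, *PUN1* turned to values above 0 in all 4 comparisons, and *SEG1* and *SEG2* did in WT at 15 min. *PUN1* in *mip6Δ* at 15 min was also above 0 with limma, with the replicate block and without replicate 3. Of all genes called in the memory comparisons, 34.9% to 54.7% were higher with memory under TMM scaling, against 79.5% to 87.5% under library totals.

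*FMP45* had the largest difference, with -0.75 ± 0.248 (SE) in *mip6Δ* and -1.09 ± 0.25 in WT at 15 min, and -1.49 ± 0.252 in *mip6Δ* and -1.67 ± 0.254 in WT at 20 min. For *LSP1* the differences were -0.64 ± 0.158 in *mip6Δ* and -0.80 ± 0.159 in WT at 15 min, and -0.81 ± 0.159 in *mip6Δ* and -0.85 ± 0.159 in WT at 20 min. *PIL1* differed by -0.55 ± 0.107 in *mip6Δ* and -0.54 ± 0.107 in WT at 15 min, and by -0.62 ± 0.107 in *mip6Δ* and -0.56 ± 0.107 in WT at 20 min. These 3 genes and *NCE102* passed in all 4 comparisons. *NCE102* differed by -0.33 ± 0.119 in *mip6Δ* and -0.51 ± 0.119 in WT at 15 min, and by -0.68 ± 0.12 in *mip6Δ* and -0.68 ± 0.12 in WT at 20 min. *SUR7* was lower by the test in *mip6Δ* at 15 min (-0.28 ± 0.109) and 20 min (-0.28 ± 0.109) and in WT at 15 min (-0.40 ± 0.109). In WT at 20 min it stood at -0.25 ± 0.109 (adjusted p = 0.0571, and 0.036 with the block). At 20 min *FHN1* was lower in *mip6Δ* (-0.71 ± 0.176) and WT (-0.62 ± 0.177), as was *EIS1* (-0.63 ± 0.224 in *mip6Δ* and -0.59 ± 0.224 in WT). *SEG1* passed in *mip6Δ* at 15 min (-0.28 ± 0.108) and in WT at 20 min (-0.28 ± 0.108), and *SEG2* and *PUN1* in none of the 4. With the block, the adjusted p of *SEG2* and *EIS1* at 15 min in *mip6Δ* was 0.0036 and 0.00968, that of *SEG1* and *SEG2* at 20 min in *mip6Δ* 0.0115 and 0.0239, that of *SEG2* at 20 min in WT 0.00555, and those of *FHN1*, *SEG1* and *EIS1* at 15 min in WT 0.0395, 0.016 and 0.0175.

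Scaled by library totals, *PIL1* and *LSP1* stayed lower with memory in all 4 comparisons, and *FMP45* in all but *mip6Δ* at 15 min (adjusted p = 0.0607). *NCE102* was then called at 20 min but not at 15 min (0.454 in *mip6Δ* and 0.0521 in WT), and *SUR7* in none. Without replicate 3, *FMP45* in *mip6Δ* at 15 min had an adjusted p of 0.213, *NCE102* of 0.244 and *SUR7* of 0.249. *SUR7* in *mip6Δ* also failed to pass without replicate 2, at 15 min (0.094) and at 20 min (0.102), and without replicate 3 at 20 min (0.285). *NCE102* in *mip6Δ* at 15 min also missed the threshold without replicate 1 (0.0554) or 2 (0.058). The calls of *SEG1* in *mip6Δ* at 15 min and in WT at 20 min, and of *EIS1* at 20 min in both strains, were lost without replicate 2, without replicate 3 and with library totals, and that of *FHN1* in WT without replicate 3 (0.113). Without replicate 3, 2 members were called in *mip6Δ* at 15 min and 4 in WT at 20 min (shares of all genes not given here).

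**Figure D5:**
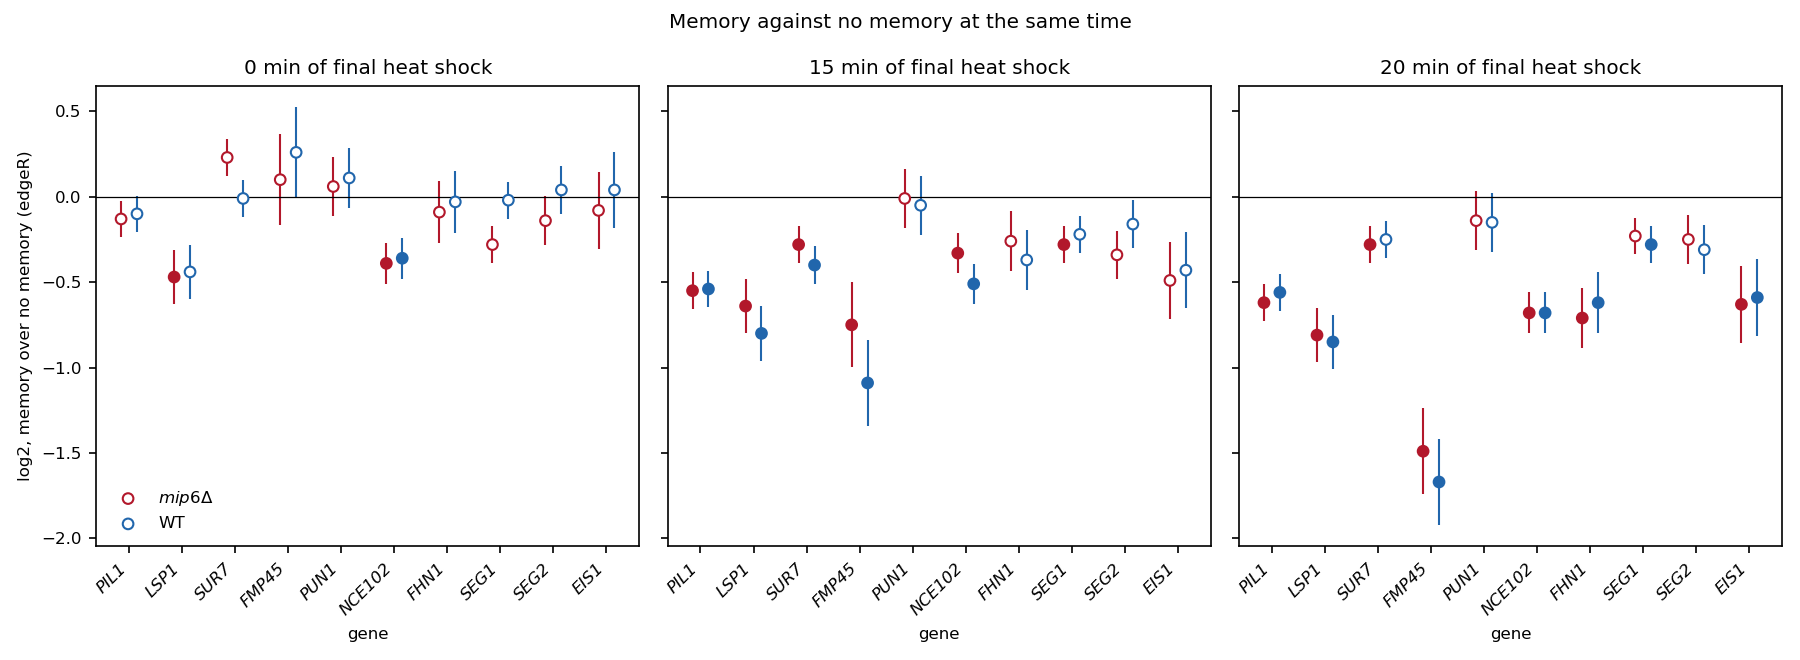
Log2 difference of memory from no-memory cells at 0, 15 and 20 min of the final heat shock for the 10 genes, in *mip6Δ* and WT, from edgeR with TMM scaling. Bars are SE, and filled points have an adjusted p under 0.05. At 15 and 20 min all points lie below 0, with *FMP45* at -0.75 to -1.67, and with scaling by library totals *PUN1* lies above 0.

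Whether the heat response itself differed with memory was tested as an interaction, the log2 response of memory cells minus that of no-memory cells. None of the members had a higher call, against 7.77% of all genes in *mip6Δ* and 7.52% in WT at 15 min, and 9.43% in *mip6Δ* and 6.03% in WT at 20 min. Lower calls were made for 1 member in *mip6Δ* (2.61% of all genes) and 1 in WT (3.84%) at 15 min, and for 3 in *mip6Δ* (4.45%) and 1 in WT (4.12%) at 20 min. *FMP45* had -0.85 ± 0.363 (SE, adjusted p = 0.133) in *mip6Δ* and -1.35 ± 0.364 (0.0155) in WT at 15 min. At 20 min it had -1.59 ± 0.365 (0.00399) in *mip6Δ* and -1.93 ± 0.365 (0.000793) in WT. Its rise was thus smaller with memory in the 3 comparisons that passed, and a rise remained in each. The call in WT at 15 min was lost without replicate 1, 2 or 3 (0.074, 0.07 and 0.0887), that in *mip6Δ* at 20 min without replicate 3 (0.0835), and that in WT at 20 min in none of these cases.

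For *SUR7* the interaction was -0.52 ± 0.154 at 15 min (adjusted p = 0.0306) and -0.52 ± 0.154 at 20 min (0.0248) in *mip6Δ*, which means a larger fall with memory. In WT it was -0.39 ± 0.154 (0.0939) and -0.24 ± 0.154 (0.317). Both calls in *mip6Δ* were lost without the library of doubtful time (0.0649 at 15 min and 0.0549 at 20 min) and without replicate 1, 2 or 3, and that at 15 min with library totals (0.0576). *PIL1* had -0.48 ± 0.151 (0.0319) in *mip6Δ* and -0.46 ± 0.151 (0.051) in WT at 20 min, and -0.42 ± 0.151 (0.073) in *mip6Δ* and -0.44 ± 0.151 (0.0567) in WT at 15 min. The call of *PIL1* was lost without replicate 1, 2 or 3 (0.123, 0.0725 and 0.296). With the replicate block, *PIL1* had an adjusted p of 0.047 in *mip6Δ* and 0.037 in WT at 15 min and 0.0329 in WT at 20 min, *EIS1* in WT of 0.04 at 20 min and *FHN1* in *mip6Δ* of 0.0407 at 20 min. *LSP1* and *NCE102* had interactions between -0.41 and 0.06, none past the threshold. Of the 19 further genes, 2 passed with higher and 1 with lower values in *mip6Δ* at 15 min, 0 and 2 in WT at 15 min, 1 and 0 in *mip6Δ* at 20 min, and 0 and 2 in WT at 20 min. Of all genes, 6.03% to 9.43% were higher and 2.61% to 4.45% lower in these comparisons. The genes that passed included *FUR4* in *mip6Δ* (1.27 ± 0.309 at 15 min and 1.45 ± 0.305 at 20 min), *PST2* in *mip6Δ* (0.53 ± 0.148 at 15 min) and YNL194C in WT (-2.23 ± 0.664 at 20 min).

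No member differed between *mip6Δ* and WT by edgeR. Over all 6 combinations of condition and time, the log2 difference of *mip6Δ* from WT lay between -0.14 (*SUR7*) and 0.11 (*SEG2*), and 1.12% of all genes were called. This average treats all libraries of a strain as independent, though a culture was divided between memory and no memory. Libraries of different times may also come from the same flask. The p-values of this average, by any of the tools, may thus be too small. *SUR7* alone had an unadjusted p under 0.05 (adjusted p = 0.142), as had 959 of all genes. DESeq2 called 0 members and 152 of all genes. With limma on the normalized counts 1 member passed, again *SUR7* (0.0299), among 561 of 6172 genes called, against 66 of 5867 with edgeR. Adding the replicate block to edgeR also called *SUR7* (0.0479), and the share of all genes with the block is not given here. Of all genes called, 30.3% were higher in *mip6Δ*, against 70.3% with library totals. The heat response, averaged over times and conditions, differed between *mip6Δ* and WT by -0.06 (*SUR7*) to 0.48 (*LSP1*), with 4 of 10 members at an unadjusted p under 0.05 (706 of all 5867 genes). None of the members was called, and 0.0852% of all genes were. For *LSP1* the value was 0.48 ± 0.137 (SE, adjusted p = 0.185 with edgeR and 0.0345 with DESeq2), and limma called 0 members. For the effect of strain on the interaction, 0.0% of all genes and none of the members were called by edgeR, 0 members and 40 of all genes had an unadjusted p under 0.05, and DESeq2 and limma called 0 and 0 members. At 0 min all *mip6Δ* libraries of *LSP1* and of *NCE102* were below all WT libraries of the same condition, with no call. The edgeR adjusted p was 0.7 in no-memory and 0.6 in memory cells for *LSP1*, and 0.847 and 0.965 for *NCE102*. How many of all genes were separate in this way was not counted, so the separation does not show a strain difference.

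Likeness of profiles was measured as the Pearson correlation of log2 mean CPM (with a pseudocount of 1) over the 12 groups. It is a description over points that share libraries and one heat shock. Among the members *LSP1* and *NCE102* were closest (r = 0.993), then *SEG1* and *SEG2* (0.957), and *PIL1* and *LSP1* reached 0.953. *SUR7* had negative values with all other members but *EIS1* (0.158), the lowest with *FMP45* (-0.873). *EIS1* was most like *FHN1* (0.822) and *PIL1* (0.791).

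Among all tested genes, *FMP45* was most like *HXT5*, a hexose transporter gene (0.999), and *EGO4* (0.999). *LSP1* was most like *TPK2*, a catalytic subunit gene of protein kinase A (0.995), and *DOG2*, a sugar phosphatase gene (0.994), and *NCE102* was most like *LSP1* (0.993) and *TPK2* (0.991). *PIL1* came closest to *XKS1*, the xylulokinase gene (0.991), and *DUF1* (0.985), and *SUR7* to *AFG1* (0.987) and *HTZ1*, the gene of histone H2A.Z (0.987). *SEG1* was most like *BBC1* (0.992) and *PSP1* (0.99), and *SEG2* most like *VPS5*, a retromer subunit gene (0.984), and *PAH1*, a phosphatidate phosphatase gene (0.983). The values were 0.977 and 0.971 for *PUN1* with *SNO4* and *FLC1*, 0.97 and 0.97 for *FHN1* with YMR085W and *TOS8*, and 0.967 and 0.959 for *EIS1* with *STE13* and *REC107*. *SNO4* has near-identical copies in the genome, so its counts are uncertain, and the other genes of this paragraph were not checked for overlapping or antisense genes.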

How the data were processed

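The authors trimmed the reads of a stranded TruSeq library with Trimmomatic, checked them with FastQC and used HISAT2 and StringTie with the sacCer3 genome, and tool versions are not given in the sources used here. They deposited whole-number read counts per gene, with no normalization, and a normalized signal per gene (TMM, a filter on low counts, ARSyN removal of hidden batch effects), used here for an alternative. Whether counting used strand is not given.

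Read counts were tested with edgeR 4.0.16 (R 4.3.3), quasi-likelihood F tests with TMM scaling and 12 group means, on genes with more than 1 CPM in at least 3 samples. These tests treated all libraries as independent, including those of different times, which may be repeated samples of the same flask. Benjamini-Hochberg adjustment was made over all 5867 genes of a contrast, with a threshold of 0.05. Alternatives were limma 3.58.1 on log2 of the normalized signal (pseudocount 1 or 10), DESeq2 1.42.0, library totals, no filter, a replicate block, each replicate number left out of all groups, and the library of doubtful time left out. On simulated data edgeR recovered 90% of 2-fold and 65.5% of 1.5-fold changes for the heat response of WT no-memory cells at 15 min (200 of 5867 genes changed), and 73.5% and 38.5% for the memory interaction of WT at 15 min. The simulated libraries were drawn independently, and in the real data 4295 genes were called for this heat response. The percentages thus describe the simulated setting and not the power of the tests reported here.

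Same-numbered libraries deviated together (every r over 0.1) in 10 of 20 pairs of groups, with 5 of 6 memory pairs among them, and the labels say that a culture was divided between memory and no memory. Blocked values of those pairs, and of the memory pair of *mip6Δ* at 15 min, which is not among them, are given where they change a call. The upstream window of *SUR7* is not reported here. The members and lists were chosen with earlier results of these data known. Genes named are the 10 members, those of the 19 further genes past the threshold and 2-fold in WT no-memory cells at 15 min, the 2 most similar profiles per member, and *MIP6*.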

Additional observations from a re-analysis of the deposited data

Results flagged for a closer look

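The memory effect on the heat response, tested as an interaction (edgeR), passed for 3 members. *FMP45* had -1.35 at 15 min in WT, -1.93 at 20 min in WT and -1.59 at 20 min in *mip6Δ*. *SUR7* had -0.52 at 15 min and -0.52 at 20 min in *mip6Δ*, and *PIL1* had -0.48 at 20 min in *mip6Δ*. The 20-min and 15-min samples differed over all 4 groups for *FMP45* (-0.69), *LSP1* (-0.42), *PIL1* (-0.30), *NCE102* (-0.22) and *SUR7* (-0.16). Groups of 3 libraries were too small for a test of single outlying libraries.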

How the results depend on the processing

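Of 210 member values over 21 comparisons, 199 kept their direction and side of the threshold with DESeq2, 207 without the filter, 184 with limma, 170 with library totals and 185 with the replicate block. Without replicate 1, 2 or 3 the number was 173, 168 and 175, and 203 without the library of doubtful time. The block made 23 values newly past the threshold and lost none, and other calls did not change with it. With library totals, members called numbered 1 in place of 2 (memory at 0 min in *mip6Δ*), 0 in place of 1 (memory at 0 min in WT, interaction at 15 min in *mip6Δ*), 2 in place of 6 (memory at 15 min in *mip6Δ*), 3 in place of 5 (memory at 15 min in WT), 2 in place of 1 (interaction at 20 min in WT), and values changed sign for *EIS1* 0.05 (heat at 20 min in *mip6Δ* memory), *PIL1* 0.05 (heat at 20 min in WT memory), *EIS1* 0.10 (heat at 20 min in WT no-memory), *PIL1* 0.03, *FHN1* 0.07, *SEG2* 0.02 and *EIS1* 0.08 (memory at 0 min in *mip6Δ*), *PIL1* 0.09, *SUR7* 0.18, *FHN1* 0.16 and *SEG1* 0.17 (memory at 0 min in WT), *PUN1* 0.21 (memory at 15 min in *mip6Δ*), *PUN1* 0.20, *SEG1* 0.03 and *SEG2* 0.09 (memory at 15 min in WT), *PUN1* 0.06 (memory at 20 min in *mip6Δ*), *PUN1* 0.05 (memory at 20 min in WT), *SEG1* 0.06 (interaction at 15 min in *mip6Δ*). With limma on the normalized counts (pseudocount 1 or 10), members called numbered 8 in place of 5 (20 against 15 min), 2 in place of 1 (memory at 0 min in WT, interaction at 15 min in *mip6Δ*, interaction at 15 min in WT), 3 in place of 1 (interaction at 20 min in WT), 1 in place of 0 (strain), and values changed sign for *EIS1* 0.03 (heat at 20 min in WT no-memory), *PUN1* 0.04 (memory at 15 min in *mip6Δ*), *SEG1* 0.01 (interaction at 15 min in *mip6Δ*). With the replicate block, members called numbered 8 in place of 5 (20 against 15 min, memory at 15 min in WT), 2 in place of 1 (memory at 0 min in WT, interaction at 15 min in *mip6Δ*, interaction at 15 min in WT), 3 in place of 1 (interaction at 20 min in WT), 1 in place of 0 (strain), and values changed sign for *EIS1* 0.02 (heat at 20 min in WT no-memory), *PUN1* 0.01 (memory at 15 min in *mip6Δ*). With DESeq2, members called numbered 2 in place of 1 (memory at 0 min in WT, interaction at 15 min in *mip6Δ*, interaction at 15 min in WT, interaction at 20 min in WT), 1 in place of 0 (strain by heat). Without the filter, members called numbered 2 in place of 1 (memory at 0 min in WT). With one replicate number or the library of doubtful time left out, members called ranged 4 to 8 against 8 (heat at 15 min in WT memory), 2 to 6 against 6 (heat at 20 min in WT memory), 3 to 5 against 5 (20 against 15 min), 0 to 3 against 2 (memory at 0 min in *mip6Δ*), 0 to 2 against 1 (memory at 0 min in WT), 2 to 7 against 6 (memory at 15 min in *mip6Δ*), 4 to 9 against 7 (memory at 20 min in WT), at 0 in each case against 1 (interaction at 15 min in *mip6Δ*), 0 to 1 against 1 (interaction at 15 min in WT), 0 to 2 against 3 (interaction at 20 min in *mip6Δ*). Values that changed sign in these cases ranged as follows, by comparison, *FHN1* -0.02 to 0.21 and *EIS1* -0.39 to 0.05 (heat at 15 min in WT memory), *EIS1* -0.27 to 0.01 (heat at 20 min in *mip6Δ* memory), *PIL1* -0.25 to 0.09 and *SEG2* -0.03 to 0.26 (heat at 20 min in WT memory), *EIS1* -0.13 to 0.23 (heat at 20 min in WT no-memory), *PUN1* -0.08 to 0.21 and *FHN1* -0.28 to 0.04 (memory at 0 min in *mip6Δ*), *SUR7* -0.06 to 0.02, *FHN1* -0.13 to 0.14, *SEG1* -0.16 to 0.05, *SEG2* -0.13 to 0.12 and *EIS1* -0.07 to 0.10 (memory at 0 min in WT), *PUN1* -0.08 to 0.12 (memory at 15 min in *mip6Δ*), *PUN1* -0.29 to 0.20, *NCE102* -0.04 to 0.12 and *SEG1* -0.08 to 0.05 (interaction at 15 min in *mip6Δ*), *SEG2* -0.35 to 0.02 (interaction at 15 min in WT), *FMP45* -0.04 to 0.14, *FHN1* -0.09 to 0.07, *SEG1* -0.02 to 0.09 and *EIS1* -0.02 to 0.12 (strain), *SUR7* -0.14 to 0.10, *FMP45* -0.10 to 0.60 and *PUN1* -0.02 to 0.11 (strain by heat). The 1 call with library totals for memory at 0 min in *mip6Δ* was *SUR7*, higher with memory. Shares of all genes with libraries left out or with the block are not given here. Member counts in those settings thus cannot be set against all genes. Calls over all genes also moved with the setting. With limma they numbered 2194 in place of 1413 (20 against 15 min), 1509 in place of 666 (interaction at 15 min in WT) and 1708 in place of 935 (memory at 0 min in WT). With library totals they numbered 2899 in place of 2355 for memory at 15 min in *mip6Δ*, where fewer members were called. The cause of these changes was not tested.

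Across all 20 pairs of groups, 47 of 60 same-numbered pairs of libraries had deviations correlated over 0.1 (lowest -0.19, highest 0.79). Shares of higher calls under library totals against TMM were 83.5% against 60.7% (20 against 15 min), 59.3% to 65.8% against 49.0% to 49.8% (heat, memory cells, apart from WT at 15 min), and 87.0% against 74.9% and 82.0% against 66.2% (interaction at 15 min in *mip6Δ* and in WT). Read depth limited *FHN1* most, with as few as 102 reads in a library. With 3 replicates in a group, a value that missed the threshold does not show equal levels.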
